A study of Ovis aries with 30 samples.

Results

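CD14, FCER1G, C5aR and MHCII-DRB1 are genes of myeloid recognition and of antigen presentation, and they were read here as 4 of the 1051 gene names that could be attached to the probes of a sheep expression array. They were found by the gene name or the full name in the annotation printed with each spot, which gave 9 of the 15008 probes on the array. CD14, FCER1G and C5aR each had 2 probes and MHCII-DRB1 had 3. Of the probes of a gene, the one with the highest mean over all arrays stood for it. The tissue was epicardial adipose tissue, the fat between the heart muscle and its outer membrane, from sheep taken either as term fetuses or as 2-week-old lambs. Each of the 30 animals had 1 single-colour array. Control fetuses (n = 8) and Control lambs (n = 7) came from ewes that received no cortisol. CORT fetuses (n = 6) came from ewes infused with cortisol at 1 mg/kg/day, and CORT lambs (n = 9) from ewes infused at 0.5 mg/kg/day, both from gestational day 115 to term. The ewe was infused and the offspring was not, so the lambs were sampled 2 weeks after the infusion had ended. The labels do not state which lambs or fetuses shared a ewe. The authors' paper reports 9 CORT lambs from 8 ewes, with 1 set of twins, so 2 of the CORT lambs shared a ewe. It also reports 1 set of twins among the control births, so 2 of the 7 Control lambs may have shared a ewe. The animals were treated as separate samples, and the p-values measure the spread between these animals.

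Macrophages and other myeloid cells live in adipose tissue before and after birth, where they clear debris and respond to microbial products. CD14 is a surface co-receptor that hands bacterial lipopolysaccharide to Toll-like receptors. FCER1G encodes the gamma chain shared by several Fc receptors and carries their activating signal into the cell. C5aR is the receptor for the complement fragment C5a, which draws neutrophils and macrophages to a site. MHCII-DRB1 encodes a beta chain of the MHC class II molecule, which pairs with the DR alpha chain on macrophages, dendritic cells and B cells to display peptides to helper T cells.

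The probe sequences differ in what they can resolve, and those that lie in coding sequence are shown for that reason. The CD14 probes cover nearly the same place, with an offset of 1 base, and the 59 bases that both hold are in capitals.
CD14, probe A_70_P030287: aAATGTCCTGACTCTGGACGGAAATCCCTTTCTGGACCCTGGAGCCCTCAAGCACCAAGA
CD14, probe A_70_P030286: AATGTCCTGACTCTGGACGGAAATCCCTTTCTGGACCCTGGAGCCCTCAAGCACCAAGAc
The paired probes of FCER1G and of C5aR were offset by 1 base in the same way, so 2 probes of these genes are repeated readings and not independent evidence. Of the MHCII-DRB1 probes, 2 were drawn from records of single alleles and read different stretches of the transcript.
MHCII-DRB1, probe A_70_P024151, from the record of allele DRB1C1: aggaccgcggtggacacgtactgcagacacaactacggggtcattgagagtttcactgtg
MHCII-DRB1, probe A_70_P024146, from the record of allele DRB1G1: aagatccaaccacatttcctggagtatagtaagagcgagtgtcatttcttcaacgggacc
The first of these is listed for both allele records and the second for DRB1G1 alone. The third probe, A_70_P016821, was the brightest and stood for the gene, and its annotation also lists a record of the related OVAR-DRB3. After the mean of each group was taken out, probe A_70_P016821 followed probe A_70_P024151 closely over the 30 arrays (r = 0.95) and probe A_70_P024146 less closely (r = 0.59). The C5aR name rests on the array designer's name for an expressed sequence tag. The annotation gives no genome build and no genome position for these probes.

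Values are log2 of the background-corrected and quantile-normalized spot intensity, so a step of 1 is a 2-fold difference. A level is compared only within a probe, because probes differ in brightness for reasons of their own. The standing probes of the 4 genes were well above background on all 30 arrays. The arrays were alike in quality, with median spot signals of 129.5 to 234.5, median backgrounds of 34 to 46 and 70.4% to 83.5% of spots well above background. All 9 adipocyte genes tested were well above background in every animal, as the tissue label requires. Of 29 symbols in a monocyte and macrophage list, 5 could be matched to the array, so myeloid content can be read from few genes. In whole tissue, more cells of a type and more RNA per cell cannot be told apart.

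CD14 was low and even in the fetuses and slightly higher in the lambs. In Control fetuses it ran from 7.61 through a median of 7.70 to 7.82, and in CORT fetuses from 7.55 through 7.90 to 7.99. In Control lambs it ran from 7.66 through 8.00 to 8.20, and in CORT lambs from 7.80 through 7.99 to 8.48. Control lamb 6 lay at 7.66, inside the range of the Control fetuses, and the other 6 Control lambs lay above every Control fetus.

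FCER1G separated the Control groups completely. It ran from 9.55 through a median of 9.76 to 9.97 in Control fetuses and from 9.70 through 10.04 to 10.39 in CORT fetuses. It ran from 10.33 through 10.67 to 10.86 in Control lambs and from 9.87 through 10.84 to 12.18 in CORT lambs. CORT lamb 1 lay within the fetal range, and CORT lamb 7 lay far above all the other animals.

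C5aR showed the same order in Control animals with a wider step. It ran from 7.64 through a median of 7.86 to 7.95 in Control fetuses and from 7.80 through 8.12 to 8.81 in CORT fetuses. It ran from 8.64 through 8.94 to 9.95 in Control lambs and from 8.03 through 8.96 to 9.86 in CORT lambs. CORT fetuses 1, 3 and 5 stood above all Control fetuses, at 8.33, 8.81 and 8.45, while the other 3 CORT fetuses lay within the range of the Control fetuses. CORT lamb 1 lay at 8.03, within the range of the CORT fetuses.

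MHCII-DRB1 had the widest step with age of the standing probes. It ran from 6.87 through a median of 8.63 to 8.98 in Control fetuses and from 8.21 through 9.03 to 9.32 in CORT fetuses. It ran from 9.80 through 10.14 to 10.60 in Control lambs and from 9.01 through 10.29 to 11.72 in CORT lambs. Control fetus 2 lay at 6.87 and the next Control fetus at 8.48. CORT lambs 2, 3, 7 and 9 lay above all Control lambs, at 11.34, 10.65, 11.72 and 11.18, and CORT lambs 1, 4 and 8 lay below all of them, at 9.01, 9.79 and 9.57.

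**Figure D1:**
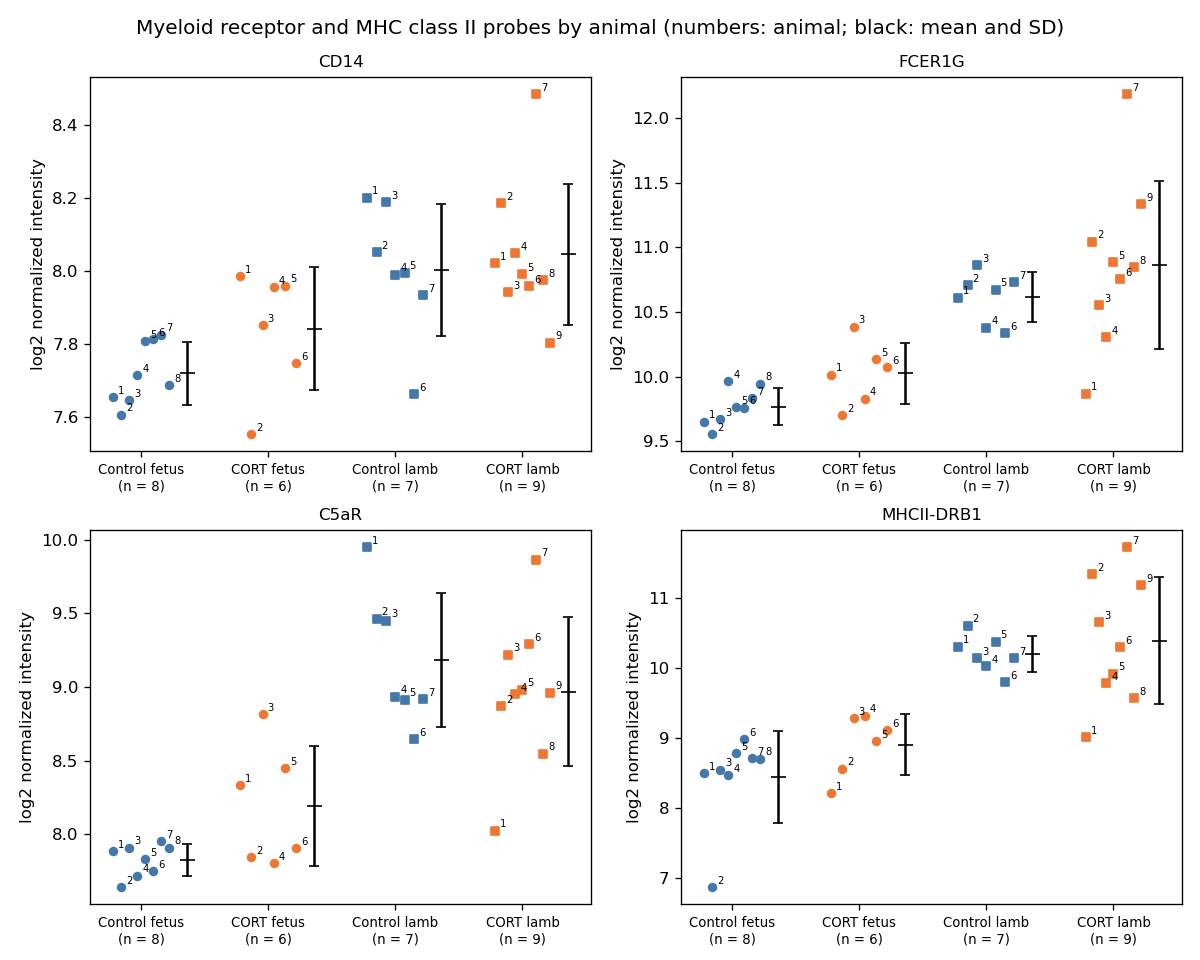
Log2 normalized intensity (vertical axes) of the standing probe of CD14, FCER1G, C5aR and MHCII-DRB1 in the 4 groups, with 1 point for each animal, its number beside it, and the group mean and SD in black. FCER1G, C5aR and MHCII-DRB1 of the 7 Control lambs lie above all 8 Control fetuses, and CORT lamb 7 is the highest CORT lamb in all 4 panels.

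The order of the group means was Control fetuses, CORT fetuses, Control lambs and CORT lambs for CD14, FCER1G and MHCII-DRB1. For CD14 the means were 7.72 ± 0.09, 7.84 ± 0.17, 8.00 ± 0.18 and 8.05 ± 0.19 (SD). For FCER1G they were 9.77 ± 0.14, 10.02 ± 0.24, 10.61 ± 0.19 and 10.86 ± 0.65. For MHCII-DRB1 they were 8.45 ± 0.66, 8.91 ± 0.44, 10.20 ± 0.26 and 10.39 ± 0.90. For C5aR the lambs changed places, with 7.82 ± 0.11 in Control fetuses, 8.19 ± 0.41 in CORT fetuses, 8.97 ± 0.51 in CORT lambs and 9.18 ± 0.45 in Control lambs. Within an age, no pair of neighbours in these orders differed past the adjusted threshold. CORT fetuses were not tested against lambs, because age, dose and time since infusion changed together. The ranges of CORT fetuses and Control lambs overlapped for CD14, FCER1G and C5aR and did not overlap for MHCII-DRB1.

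The comparison of Control lambs with Control fetuses asks how these genes change between term and 2 weeks after birth without added cortisol. All 4 genes were higher in Control lambs by all 9 probes, with adjusted p-values from limma under the threshold of 0.05. MHCII-DRB1 was higher by 1.75 ± 0.24 (log2 change ± SE), which is 3.36-fold with a 95% confidence interval of 2.35 to 4.80 (adjusted p = 2.84e-05). C5aR was higher by 1.36 ± 0.15, or 2.56-fold with an interval of 2.05 to 3.21 (adjusted p = 3.59e-06). FCER1G was higher by 0.85 ± 0.09, or 1.80-fold with an interval of 1.59 to 2.04 (adjusted p = 1.28e-06). CD14 rose least, by 0.28 ± 0.07, or 1.22-fold with an interval of 1.09 to 1.36 (adjusted p = 0.00531). Among all 13077 probes tested, 40.9% were called, 19.9% higher in lambs and 21% lower, so a call in itself was common in this comparison. All probes of FCER1G, C5aR and MHCII-DRB1 showed no overlap between the groups, against 7.26% of all tested probes in that direction. Their exact two-sided permutation p was 0.000155, the smallest that the 6435 splits of 7 and 8 animals allow, and that of CD14 was 0.00233.

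The repeated probes of FCER1G and C5aR gave changes of 0.94 and 1.37, close to those of the standing probes. The second CD14 probe gave 0.25 (adjusted p = 0.0103), and this call was lost with the replicate number as a block (adjusted p = 0.0793) and with all 4 groups in one fit (adjusted p = 0.0535). The MHCII-DRB1 probes all rose but by different amounts, with 1.75 for A_70_P016821, 1.09 for A_70_P024151 and 0.64 for A_70_P024146. Probe A_70_P024146 was dim, and was well above background in 7 of 8 Control fetuses, 5 of 6 CORT fetuses and all lambs. As folds these changes were 3.36, 2.14 and 1.56. With the scanner software's own corrected signal the dimmer probes gave larger changes, 1.89 for A_70_P024151 and 1.55 for A_70_P024146. The sizes of these changes therefore depend on the background correction. The standing probes also moved, and across the alternatives MHCII-DRB1 reached 2.28 and C5aR 1.83. Both lie above the upper limits of their log2 confidence intervals in the main fit, 2.26 and 1.68.

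Each age was hybridized on slides of its own, with the fetuses on slides 1 and 2 and the lambs on slides 3 and 4. Age and the set of slides therefore cannot be told apart. As an alternative, slide entered the fit as a random block. This allows for likeness between arrays of a slide and does not separate age from the set of slides. With that block the adjusted p was 0.0155 for CD14, 1.40e-05 for FCER1G, 2.16e-05 for C5aR and 0.00017 for MHCII-DRB1. Scaling each array to its 75th percentile instead of quantile normalization moved the median change of all probes from -0.01 to 0.15, and the 4 changes then stood at 0.40, 0.86, 1.48 and 1.85 for CD14, FCER1G, C5aR and MHCII-DRB1. Under that scaling 4970 probes were called higher and 2241 lower, in place of 2603 and 2743.

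In the MHC class II and antigen processing list, 7 of 8 genes tested were higher in Control lambs and none was lower, with a median change of 1.35 beside -0.01 over all probes tested. OVAR-DRA, the DR alpha chain that pairs with the DRB1 product, rose by 1.83 ± 0.26 (adjusted p = 3.50e-05). OVAR-DQA2 and OVAR-DQA1, alpha chains of the DQ molecule, rose by 1.68 and 1.15, and OVAR-DRB3 by 1.26. The standing OVAR-DQA1 probe and the second OVAR-DQA2 probe match at 56 of 60 bases, so their readings cannot be assigned to one gene with certainty. CTSS, the protease that trims the invariant chain from class II molecules, rose by 1.00 ± 0.20, and the lysosomal protease LGMN by 0.70 ± 0.11. OVAR-DQB1, a DQ beta chain, had a change of 1.43 ± 0.87 that did not pass the test (adjusted p = 0.209). DYA was not well above background on any array and was not tested.

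Some class II probes varied between animals of one group far more than MHCII-DRB1 did. OVAR-DQB1 ran from 6.31 to 12.53 in Control lambs and from 7.68 to 10.87 in Control fetuses. In CORT fetuses it ran from 6.21 to 11.39 and in CORT lambs from 8.63 to 12.80. Control lamb 4 lay at 6.31, at the level of background, while the median of its group was 11.40. Leaving out single animals gave changes with age from 1.09 to 2.13 (adjusted p-values from limma of 0.024 to 0.353), and the change passed only without Control lamb 4. A second OVAR-DQA1 probe, A_70_P016751, ran from 6.20 to 11.09 in CORT lambs and was well above background in 4 of these 9 animals. CORT lamb 7, the highest of its group in all 4 members, was the lowest of its group by that probe at 6.20 and the highest by OVAR-DQB1 at 12.80. OVAR-DRA, in contrast, spanned 10.40 to 11.47 in Control lambs.

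**Figure D2:**
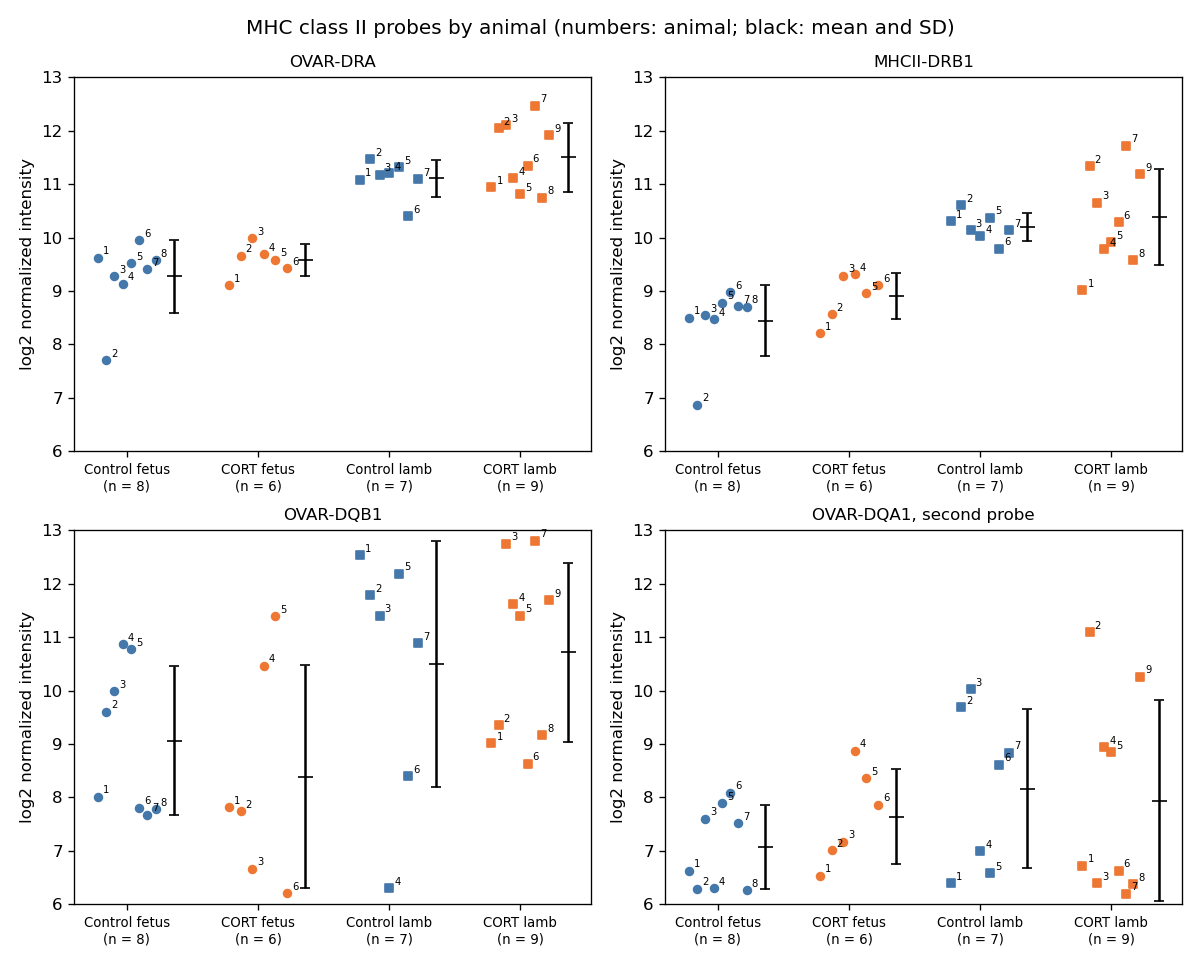
Log2 normalized intensity (vertical axes, one scale) of OVAR-DRA, MHCII-DRB1, OVAR-DQB1 and the second OVAR-DQA1 probe in the 4 groups, 1 numbered point for each animal, with group mean and SD in black. OVAR-DQB1 of Control lambs spreads from 6.31 to 12.53, whereas OVAR-DRA of the same animals spans 10.40 to 11.47.

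The MHC class I and peptide loading list moved the same way, with 14 of 16 entries higher, none lower and a median change of 1.40. B2M, the light chain of class I molecules, rose by 1.30 ± 0.22 (adjusted p = 0.000197), and PSMB8, a subunit of the immunoproteasome, by 0.76 ± 0.14. The other entries are class I heavy chain records that resemble each other, and cross-hybridization among them was not tested. In the interferon list 6 of 7 genes were higher. ISG15 rose by 1.59, MX1 by 1.06 and CXCL10 by 0.93, all genes that interferons induce. Interferon gamma itself, IFNG, had a change of -0.10 (adjusted p = 0.321).

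Of the Fc receptor and ITAM adaptor list, which holds FCER1G, 3 of 8 genes were higher, 1 was lower and the median change was 0.23. Of all probes tested, 19.9% were called higher. FCGR1A, the high-affinity IgG receptor that signals through the FCER1G chain, rose by 0.74 ± 0.14 (adjusted p = 0.000555), and by 1.73 with the scanner's corrected signal. CLEC7A, a receptor for fungal glucans, rose by 0.25, and by 1.47 with that signal. CD247, the zeta chain of the T cell receptor complex, fell by 0.36, a call that was lost at the 75th percentile scaling (-0.17, adjusted p = 0.19). FCER1A, the IgE-binding chain that also uses FCER1G, had 0.41 (adjusted p = 0.114). CLEC4E, CLEC6A and the inhibitory FCGR2B had 0.22, 0.21 and 0.07 and did not pass in the main fit. Under the alternatives they reached 1.23, 0.59 and 0.51. Each passed under some alternative (lowest adjusted limma p of 0.00149, 0.00222 and 0.00248). FCER1A reached 0.63 and also passed under some alternative (lowest adjusted limma p of 0.046).

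Of the complement list, which holds C5aR, 3 of 6 genes were higher, beside 19.9% of all probes tested. None was lower and the median change was 0.30. ITGB2, the beta chain of the complement receptor integrins of leukocytes, rose by 0.67 ± 0.16 (adjusted p = 0.00335). C3, CR2 and ITGAM had 0.07, 0.15 and 0.07 and did not pass in the main fit. Under the alternatives CR2 reached 0.48 and ITGAM 0.39, and both passed under some alternative (lowest adjusted limma p of 0.0254 and 0.00365).

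CD14 belongs to the lipopolysaccharide and Toll-like receptor list, in which 3 of 14 genes were higher, 1 was lower and the median change was 0.13, a share of higher calls close to the 19.9% of all probes. TLR3, a sensor of double-stranded RNA, rose by 0.58 ± 0.12 (adjusted p = 0.00101), and TLR8 by 0.16. NFKBIA, the inhibitor of NF-kB, fell by 0.50 ± 0.15. The TLR8 call was lost with the replicate number as a block (adjusted p = 0.059), and the NFKBIA call with that block, the scanner's corrected signal, array weights and without the animals highest in striated muscle markers (adjusted p from 0.0538 to 0.0756). TLR8 was 0.67 with the scanner's corrected signal. TLR4, the receptor that CD14 serves, had 0.12 (adjusted p = 0.16), and its adaptor MYD88 had 0.00. The remaining members did not pass, with 0.34 for TLR10, 0.19 for IRAK4, 0.14 for TLR6, 0.13 for TLR2, 0.13 for TLR7, 0.02 for TLR1, -0.02 for TLR5 and -0.03 for TLR9. This count turned on the scaling, since 13 of the 14 genes were called higher after scaling to the 75th percentile. Under that scaling 4970 of all 13077 probes tested were called higher too, in place of 2603. Detection was a further limit, as few as 7 of the 14 being well above background on an array of Control fetuses or CORT lambs.

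In the monocyte and macrophage list 4 of 5 genes were higher, CD14 among them, and the median change was 0.28. CTSB, a lysosomal protease, rose by 0.31 and CYBB, the core of the phagocyte oxidase, by 0.28. The CYBB change was 1.29 with the scanner's corrected signal, and its call was lost with the replicate number as a block (adjusted p = 0.0542). CYBA, its partner subunit, had -0.26 (adjusted p = 0.168). The summed linear intensity of the 5 genes ran from 3418 to 5228 in Control fetuses and from 3621 to 5265 in Control lambs, so the sums overlapped. A linear sum is led by its brightest probes and says little of dim ones such as CD14.

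**Figure D3:**
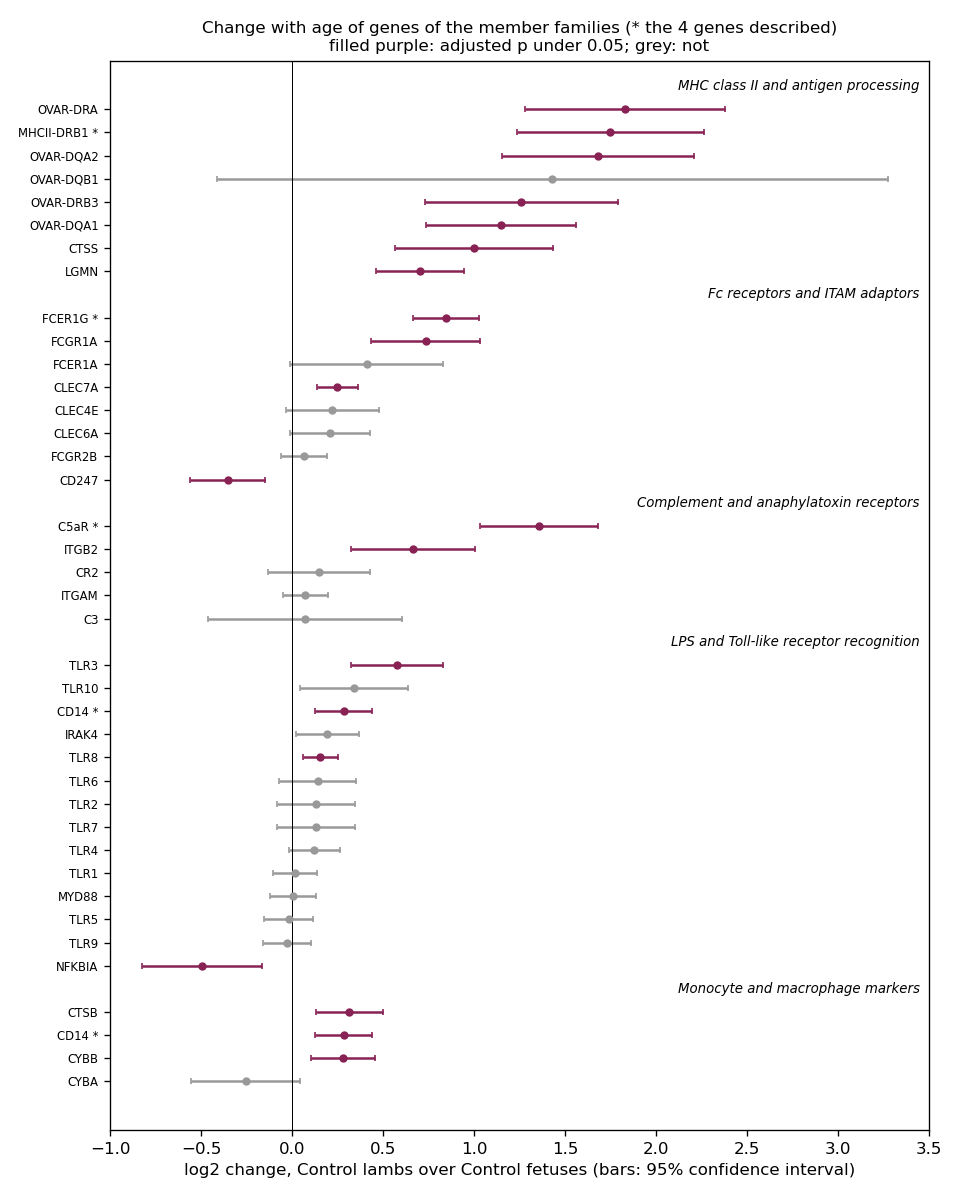
Log2 change from Control fetuses (n = 8) to Control lambs (n = 7) on the horizontal axis, with its 95% confidence interval, for genes of 5 lists named at the right, the 4 genes described being starred and genes past the adjusted threshold in purple. All but one of the class II genes lie right of 0 with intervals that do not reach it, while most Toll-like receptors lie near 0.

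Markers of other leukocytes did not all move with the members. Of 5 neutrophil genes, the cathelicidins BAC5, CATHL1B, CATHL3 and SC5 fell by 2.38, 2.36, 1.98 and 1.11, and LTF rose by 1.64. Their summed intensity ran from 548 to 4944 in Control fetuses and from 725 to 1101 in Control lambs. Of 7 T and NK cell genes, GNLY rose by 1.54, CD247 fell and 5 did not pass, with sums of 707 to 1581 and 1003 to 2199. None of 3 immunoglobulin genes passed, with sums of 443 to 788 and 542 to 1342. Of 5 dendritic cell genes, CD1B and CD86 rose by 0.70 and 0.70 and CD1D fell by 0.36, with sums of 1321 to 1659 and 1309 to 1635. Of 3 mast cell genes, the tryptase TPSB2 rose by 1.27, with sums of 498 to 772 and 588 to 1644. Of 3 pan-leukocyte genes, ITGB2 rose and ITGAL fell by 0.53, with sums of 489 to 636 and 549 to 951. The part of each cell type in the member changes was not tested.

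Striated muscle RNA was uneven between animals, and in some groups the animal highest in it was the lowest in several members. Its relation to the members over all animals was not tested. The summed intensity of MB and TNNC2, muscle myoglobin and a fast muscle troponin, ran from 8213 to 179237 in Control fetuses and from 897 to 121633 in Control lambs. Control fetus 2, with the highest sum of its group, was the lowest Control fetus by the standing probes of all 4 members. Control lamb 6, also with the highest sum of its group, was the lowest Control lamb by all 4. CORT lamb 1, with 57458 the highest CORT lamb, was the lowest CORT lamb for FCER1G, C5aR and MHCII-DRB1. CORT fetus 6, with 65688 the highest CORT fetus, was not the lowest CORT fetus for any member. Without Control fetus 2 and Control lamb 6, the changes with age were 0.33 for CD14, 0.86 for FCER1G, 1.42 for C5aR and 1.59 for MHCII-DRB1, with adjusted p-values of 0.000509, 1.12e-06, 3.30e-06 and 4.99e-08.

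The comparison of CORT fetuses with Control fetuses asks whether raised maternal cortisol changes these genes at term. It shares the Control fetuses with the comparison of ages. No probe of the array passed the adjusted threshold, and 307, or 2.35%, had an unadjusted p under 0.05. Of the 9 member probes 3 were among these, all with higher values in CORT fetuses, beside 1.21% of all probes in that direction and 1.14% in the other. These were both C5aR probes and 1 of the overlapping FCER1G pair, so they stand for 2 genes. C5aR differed by 0.37 ± 0.14 (95% confidence interval 0.07 to 0.66), with an unadjusted limma p of 0.019, an adjusted p of 1.00 and an exact permutation p over 3003 splits of 0.021. FCER1G differed by 0.26 ± 0.10 (interval 0.05 to 0.47, unadjusted limma p = 0.0201), with an exact permutation p of 0.0263, and its second probe by 0.19 (unadjusted limma p = 0.0833). MHCII-DRB1 differed by 0.46 ± 0.28 (interval -0.15 to 1.07) and CD14 by 0.12 ± 0.07 (interval -0.03 to 0.27). Probe A_70_P024146 of MHCII-DRB1 gave -0.02. Without Control fetus 2 alone the MHCII-DRB1 difference was 0.23, and without CORT fetus 3 alone that of C5aR was 0.24. Without Control fetus 2 and CORT fetus 6, the animals highest in striated muscle markers, C5aR differed by 0.40, FCER1G by 0.22 and MHCII-DRB1 by 0.19, and the unadjusted limma p of FCER1G was then over 0.05.

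Both slides held CORT and Control fetuses. On slide 1 the CORT fetuses exceeded the Control fetuses by 0.54 for C5aR and 0.33 for FCER1G, and on slide 2 by 0.19 and 0.19. The exact two-sided permutation p-values on slides 1 and 2 were 0.0857 and 0.4 for C5aR and 0.143 and 0.143 for FCER1G. The arrays of CORT fetuses 4 and 6 kept a high floor after background correction when scaled to the 75th percentile. The lower quartile of all probes was then 8.68 and 8.32 on these arrays and 6.16 to 7.07 on the other 28. Quantile normalization keeps only the order of the probes on an array, so this floor no longer shows. How well the dim probes are ordered on these arrays was not tested. With that scaling C5aR differed by 0.73 and CD14 by 0.46, beside a median of 0.28 over all probes, and without CORT fetuses 4 and 6 by 0.58 and 0.13. With quantile normalization and without the same animals, C5aR differed by 0.53, FCER1G by 0.29, MHCII-DRB1 by 0.31 and CD14 by 0.12, and no probe of the array passed. CORT fetuses 4 and 6 are among the 3 CORT fetuses with low C5aR, and leaving them out was chosen after seeing the data. In the class II list the median change was 0.16 beside -0.01 over all probes tested, and no gene of it had an unadjusted p under 0.05. Of the other lists' genes, CD86 of the dendritic cell list differed by 0.17 and SELP of the endothelial list by 0.12, both with an unadjusted limma p under 0.05 and neither past the adjusted threshold.

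The comparison of CORT lambs with Control lambs asks whether a difference is seen 2 weeks after birth. No probe passed the adjusted threshold, 467 had an unadjusted p under 0.05, and none of the 9 member probes was among them, where 3.57% of all probes were, 1.66% higher and 1.91% lower in CORT lambs. FCER1G differed by 0.25 ± 0.23 (95% confidence interval -0.24 to 0.74), MHCII-DRB1 by 0.19 ± 0.32 (interval -0.49 to 0.87), CD14 by 0.04 ± 0.09 (interval -0.15 to 0.24) and C5aR by -0.21 ± 0.22 (interval -0.68 to 0.26). The exact permutation p-values were 0.378, 0.603, 0.672 and 0.4. These values turned on single animals. FCER1G was 0.08 without CORT lamb 7. MHCII-DRB1 ran from 0.02 without CORT lamb 7 to 0.36 without CORT lamb 1, and leaving out CORT lamb 2, 8 or 9 or Control lamb 6 also moved it by over 1.5 times. C5aR was -0.10 without CORT lamb 1, -0.09 without Control lamb 1 and -0.33 without CORT lamb 7. The intervals of FCER1G, MHCII-DRB1 and C5aR leave room for differences in either direction that 7 and 9 animals did not resolve. The slides disagreed. On slide 3 the CORT lambs differed from the Control lambs by -0.20 for FCER1G and -0.68 for C5aR, and on slide 4 by 0.62 and 0.30. Of the other lists' genes, LTF of the neutrophil list differed by -0.90, and FLT1 and PECAM1 of the endothelial list by 0.16 and 0.35, with an unadjusted limma p under 0.05 and none past the adjusted threshold.

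The effect of cortisol in lambs less that in fetuses was -0.58 ± 0.28 for C5aR (interval -1.16 to -0.001), and no probe of the array passed the adjusted threshold here. The second C5aR probe gave -0.50, with an interval of -1.02 to 0.02. Beside it stood -0.27 ± 0.45 for MHCII-DRB1, -0.08 ± 0.12 for CD14 and -0.01 ± 0.28 for FCER1G. The standing C5aR probe alone of the 9 had an unadjusted p under 0.05, beside 2.06% of all probes, 0.971% with a lower and 1.09% with a higher effect in lambs. At the 75th percentile scaling the C5aR value was -0.94 beside a median of -0.27 over all probes, with the high floor on the arrays of CORT fetuses 4 and 6. Without these animals it was -0.80 with that scaling and -0.75 with quantile normalization. Leaving out single animals gave -0.69 to -0.45 for C5aR, -0.44 to -0.05 for MHCII-DRB1 and -0.14 to -0.05 for CD14. The ewes of the lambs received 0.5 mg/kg/day and those of the fetuses 1 mg/kg/day, so age, dose and time since infusion cannot be told apart in this difference. The authors' paper describes overnight infusion for the ewes of the lambs and continuous infusion in its model at 1 mg/kg/day, so the daily schedule may differ too.

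**Figure D4:**
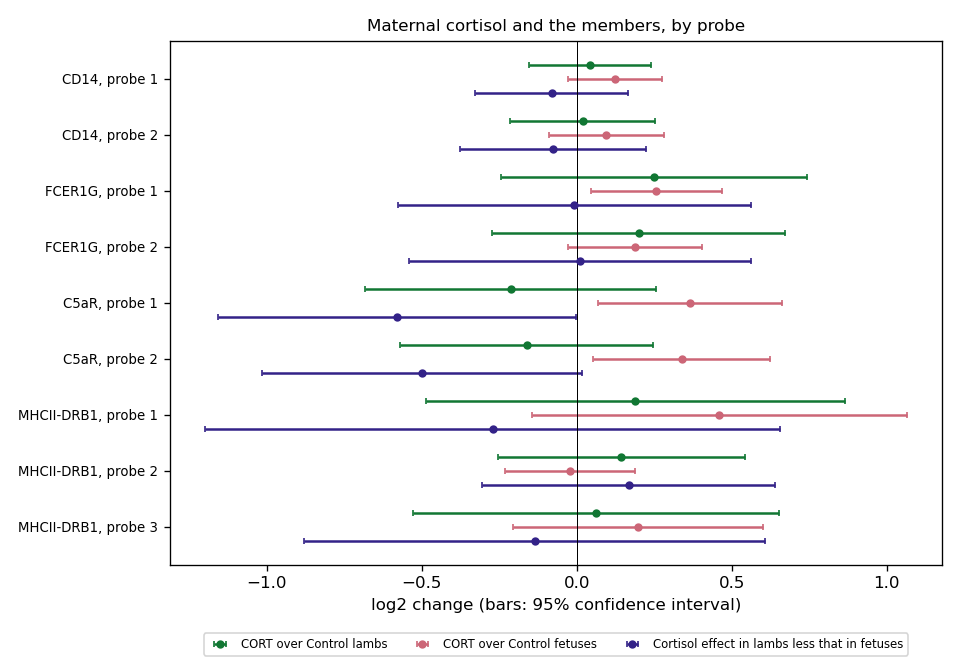
Log2 change with 95% confidence interval (horizontal axis) for each of the 9 member probes, in CORT over Control lambs (green), CORT over Control fetuses (red) and the lamb effect less the fetal effect (blue). The intervals of both C5aR probes and of the first FCER1G probe exclude 0 in fetuses, and all intervals in lambs include it.

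Spread between animals differed between CORT and Control groups for some members, which was examined after the values had been seen. In lambs the SD of MHCII-DRB1 was 0.90 in the CORT group and 0.26 in the Control group, and that of FCER1G was 0.65 and 0.19. Across all tested probes the median ratio of the CORT to the Control SD in lambs was 1.12, and the ratios for MHCII-DRB1 and FCER1G were 3.48 and 3.39. The mean absolute deviation from the group median of MHCII-DRB1 was 0.73 in CORT lambs and 0.19 in Control lambs (exact two-sided permutation p = 0.0118, adjusted over 8 such tests p = 0.0472). This call was lost without CORT lamb 7 (adjusted p = 0.0814) and after scaling to the 75th percentile (adjusted p = 0.127). For FCER1G the deviations were 0.44 and 0.14 (exact permutation p = 0.119). In fetuses C5aR had an SD of 0.41 in the CORT group and 0.11 in the Control group, with deviations of 0.34 and 0.09 (exact permutation p = 0.000999, adjusted p = 0.00799), a call that was lost after scaling to the 75th percentile (adjusted p = 0.143) and without CORT fetuses 4 and 6 (adjusted p = 0.251).

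The same animals were often high or low in several members. CORT lamb 7 exceeded the mean of its group by 1.32 for FCER1G, 0.90 for C5aR, 1.34 for MHCII-DRB1 and 0.44 for CD14. Its summed T and NK cell, pan-leukocyte, mast cell and macrophage markers, at 4595, 1723, 2429 and 5934, were also the highest of any animal, and their part in these values was not tested. Among 12 relations of member pairs within an age, 3 passed after adjustment over the 12. FCER1G and MHCII-DRB1 were related in the 16 lambs (Pearson r = 0.82, permutation p = 3.00e-05, adjusted p = 0.00036; Spearman rho = 0.57, permutation p = 0.0232). Without CORT lambs 7 and 1, the animals farthest in FCER1G, r was 0.61 (permutation p = 0.0217), and within slides 3 and 4 it was 0.89 and 0.87. C5aR and MHCII-DRB1 were related in lambs with r = 0.61 (permutation p = 0.0119, adjusted p = 0.0478) and rho = 0.52 (permutation p = 0.0416). That relation had r = 0.58 without Control lamb 1 and CORT lamb 1 (permutation p = 0.0309), and 0.50 and 0.82 within the slides.

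FCER1G and C5aR were related in the 14 fetuses (r = 0.82, permutation p = 0.00046, adjusted p = 0.00276; rho = 0.60, permutation p = 0.0263). Without CORT fetuses 3 and 5 r was 0.49 (permutation p = 0.0966), so this relation rested on those animals, although it was 0.87 and 0.77 within slides 1 and 2. In lambs the same pair had r = 0.56 (adjusted p = 0.0604 over permutations), which became -0.01 without CORT lambs 7 and 1. The pairs with CD14 had r from 0.44 to 0.58 over both ages and did not pass after adjustment. No Spearman relation passed after adjustment. The closest was that of CD14 and FCER1G in fetuses, with the highest rho of any pair (rho = 0.70, permutation p = 0.00731, adjusted p = 0.0877).

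**Figure D5:**
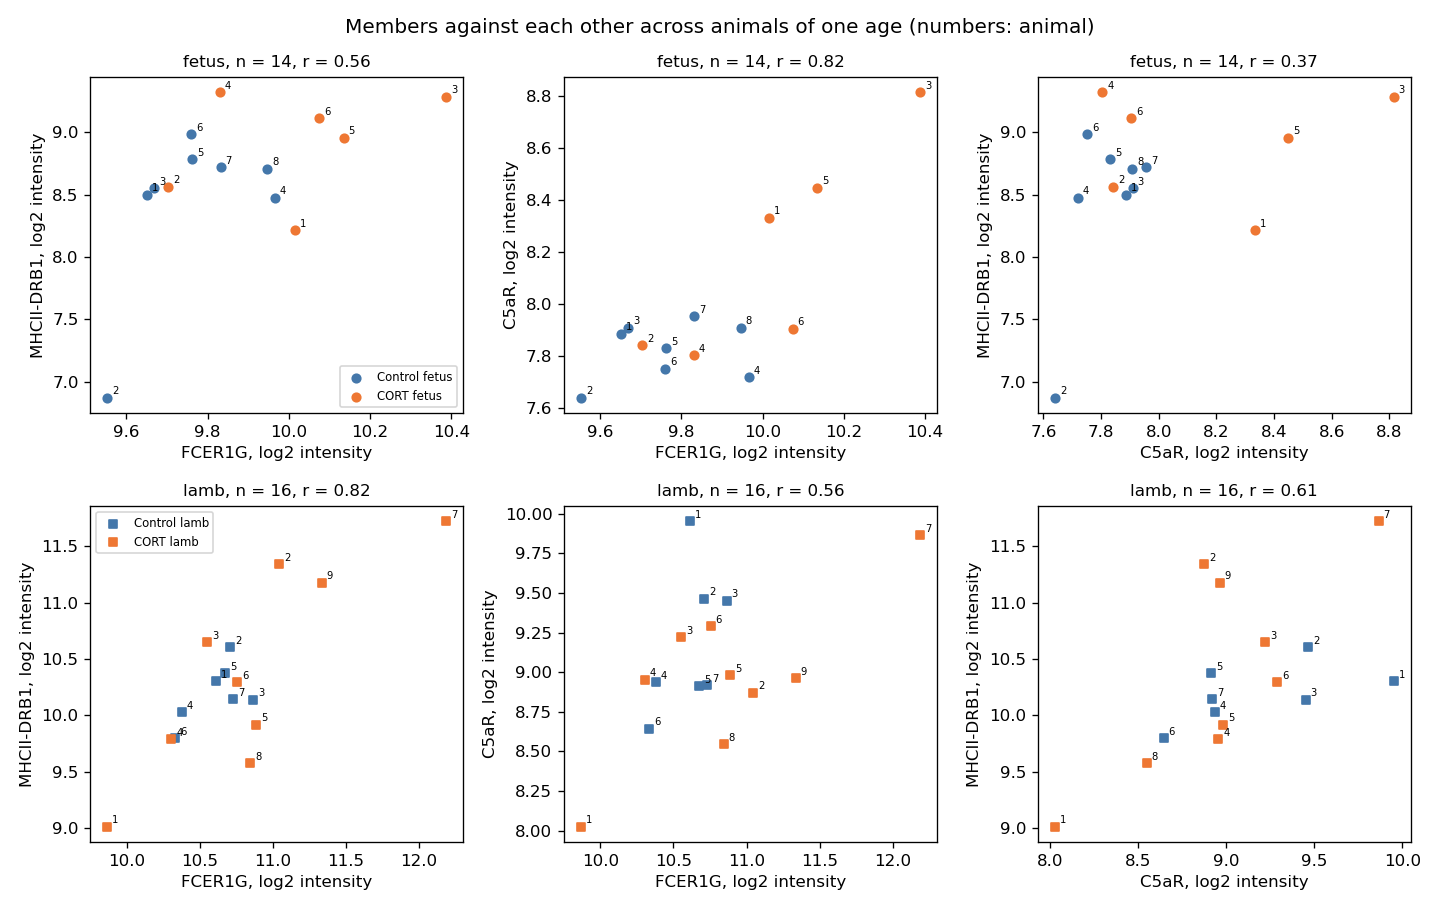
Members plotted against each other as log2 intensity, fetuses (n = 14) above and lambs (n = 16) below, with Control animals in blue, CORT animals in orange and the animal's number beside each point. FCER1G and MHCII-DRB1 rise together in lambs (r = 0.82), with CORT lamb 7 at the upper end and CORT lamb 1 at the lower end.

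The genes most like each member were sought among 914 other named genes by Pearson r over the 30 arrays, after the group means had been taken out. These values describe animals that share slides and are given with no test. CORT lamb 7, the highest of its group in all 4 members, is among these arrays, and r was not computed without it. The standing MHCII-DRB1 probe also lists an OVAR-DRB3 record, so these genes may not be separate readings. For MHCII-DRB1 they were OVAR-DRA (0.90), OVAR-DQA1 (0.88), OVAR-DRB3 (0.87), CTSS (0.83) and FLAP (0.79), the last a name for the activator protein of leukotriene synthesis. For FCER1G they were ITGB2 (0.85), OVAR-DQA1 (0.78), FLAP (0.73), the adenosine receptor ADORA3 (0.71) and LOC100101238 (0.70), annotated as a regakine 1-like protein. For C5aR they were FLAP (0.82), ITGB2 (0.80), LOC100101238 (0.77), the costimulatory molecule CD86 (0.74) and HSD11B2 (0.74), the enzyme that inactivates cortisol. For CD14 they included ITGB2 (0.71), CYBB (0.69), LOC100101238 (0.65) and FCGR1A (0.65). The median r over all 914 genes was between 0.01 and 0.06 for the 4 members.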

How the data were processed

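RNA from 30 animals was labelled and hybridized to Agilent single-colour arrays. The dye is taken as Cy3 here, as the deposited signals are of the green channel, while the authors' paper names Cy5. The authors extracted each spot's intensity with Agilent Feature Extraction 10.1.1.1, per the file headers, and these intensities were deposited per array. They also deposited normalized log2 values, made with limma in the submitters' processing notes. Only their 16 lamb columns were used, as an alternative, and 14 fetal columns were not used.

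Spot mean and background intensities were corrected by normexp (offset 50) and quantile-normalized over 30 arrays in limma 3.58.1 (R 4.3.3), spots marked as outliers were left out, and repeated spots were averaged. Probes 10% brighter than the 95th percentile of 77 negative controls on at least 6 arrays were tested, 13077 of 15008. Only the compared groups entered each fit (lmFit, eBayes), with Benjamini-Hochberg adjustment over all tested probes, checked on simulated data. Exact and resampled (100000) permutation tests used scipy 1.17.1. Animals were grouped by their titles. The number of arrays limits the precision.

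The genes described and the lists were chosen with earlier results of these data known. Named were the tested genes of the MHC class II, Fc receptor, complement, Toll-like receptor and macrophage lists, up to 4 called genes a direction of the other lists, and the 5 genes most like each member. Some of these genes are counted but not reported by name here. Alternatives covered background correction, scaling, the filter, array weights, slide, replicate number, pooled fits and leaving out animals.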

Additional observations from a re-analysis of the deposited data

Results flagged for a closer look

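Of 36 sets of values tested for an outlying animal (9 member probes in 4 groups), 3 held one by Dixon's test at the 95% level, and chance alone gives about 1 in 20. MHCII-DRB1 of Control fetus 2 was the lowest of its group by probe A_70_P016821, at 6.87, and by probe A_70_P024151, at 6.51. These probes follow each other over the arrays, so both values are one observation. Control fetus 2 also had the highest summed striated muscle markers of any animal, at 179237, and the part of this in its MHCII-DRB1 value was not tested. By probe A_70_P024146, MHCII-DRB1 of Control lamb 1 was the highest of its group, at 8.16.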

How the results depend on the processing

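The higher levels of CD14, FCER1G, C5aR and MHCII-DRB1 in Control lambs kept their direction and their call by the standing probes under all alternatives run. Leaving out single animals gave 0.25 to 0.34, 0.81 to 0.89, 1.23 to 1.45 and 1.52 to 1.83. Probes called in that comparison numbered 4985 to 5475 without single animals and 4406 with slide as a random block. The numbers in the titles were not taken to pair the animals. Deviations of same-numbered animals correlated at over 0.1 in 1 of 7 pairs of Control lambs and fetuses (-0.23 to 0.24), 3 of 6 pairs of fetuses (-0.19 to 0.41) and 5 of 7 pairs of lambs (-0.06 to 0.41), so not in every pair of any comparison. With the replicate number as a block 4636 probes were called, CD14 differed by 0.28 (adjusted p = 0.0447), and 1 probe was called in CORT fetuses, where no other alternative called any except leaving out single animals (0 to 1, with 1 without CORT fetus 2).

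The values that turned sign were these. CD14 in CORT lambs became -0.0115 without the animals highest in striated muscle markers and ran from -0.0145 to 0.0753 without single animals. MHCII-DRB1 in CORT fetuses was -0.023 by probe A_70_P024146. The lamb effect less the fetal effect of FCER1G became 0.0179 at the 75th percentile, 0.11 without the muscle-high animals and 0.011 by its other probe, and ran from -0.17 to 0.12 without single animals. That of MHCII-DRB1 became 0.10 without the muscle-high animals and 0.17 by probe A_70_P024146. With age, C3 became -0.016 with cyclic loess. MYD88 became -0.0464 with the scanner's corrected signal, -0.0049 with cyclic loess, -0.0277 with array weights and -0.0046 without the muscle-high animals. TLR5 became 0.0106 with the scanner's corrected signal, 0.33 at the 75th percentile, 0.0135 with array weights and 0.0278 without the muscle-high animals. TLR9 became 0.27 at the 75th percentile. Without single animals C3 ran from -0.0412 to 0.30, MYD88 from -0.0269 to 0.0266, TLR1 from -0.00538 to 0.0415 and TLR5 from -0.0457 to 0.0108. The spread of CD14 in CORT less Control lambs became 0.0294 at the 75th percentile, and that of MHCII-DRB1 in fetuses 0.0171 without CORT fetuses 4 and 6 and 0.00153 without them at the 75th percentile.

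At the 75th percentile the fetal relation of FCER1G and C5aR was lost (r = 0.48), and those of CD14 and C5aR (r = 0.79) and of C5aR and MHCII-DRB1 (r = 0.65) passed. The arrays of CORT fetuses 4 and 6 kept a high floor under this scaling, and without them the relations were 0.86 (passed), 0.66 and 0.55 (neither passed). With quantile normalization and without these animals CD14 was related to FCER1G (r = 0.67) and C5aR (r = 0.66). On deviations from the group means, CD14 and C5aR (r = 0.63) and FCER1G and C5aR (r = 0.65) passed in lambs. The cause was not tested. Leaving out muscle-high animals, leaving out CORT fetuses 4 and 6 and the alternatives of the spread tests were chosen after seeing the data. Signal over background limits probe A_70_P024146, the dim class II probes and parts of the other lists. As few as 3 of 8 Fc receptor genes (lambs) and 7 of 14 Toll-like receptor list genes (Control fetuses and CORT lambs) were well above background on an array.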
